A study of Mus musculus with 16 samples.

Results

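The genes of the potassium channel family were followed by ATAC-seq, in which a transposase cuts accessible DNA and leaves sequencing adapters behind, in retinal ganglion cells of the mouse eye. Members were taken by name: every gene whose symbol starts with Kcn, a letter and a digit, plus Kcnma1, without opposite-strand transcripts and pseudogenes. The rule took 83 of the 37255 gene intervals in the deposited table and used no measured value. It took 82 channel subunit genes and Kcnq1ot1, a non-coding RNA transcribed antisense to Kcnq1, and left 15 other Kcn-named intervals outside. Ganglion cells are the retina's output neurons, whose axons form the optic nerve, and they were sorted by flow cytometry from female mice, with 15000 to 50000 cells per library. Naive controls gave 5 libraries, the presymptomatic stage 4, disease onset 3 and disease peak 4. The last 3 groups had EAE (experimental autoimmune encephalomyelitis, a model of inflammatory demyelination that can involve the optic nerve), induced at an age of 7 to 8 weeks. All groups were female and carry the same age entry of 7 to 8 weeks, naive controls included. The controls are labelled Control with no further treatment. Mouse strain, the agent used for induction and any pooling of mice are not given in the sources used here. Whether each library is a different animal is not stated, and p-values therefore reflect variation among libraries that may be partly technical.

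Potassium channels pass potassium ions across the membrane and so set the resting potential, end the action potential and pace firing. The voltage-gated families (Kv1 to Kv4, the EAG channels and Kv7) open on depolarisation, inward rectifiers (Kir) hold the resting potential, and K2P channels carry leak current. Most of the BK, SK and Slo channels answer to calcium or sodium. In myelinated axons such as those of the optic nerve, Kv1 channels flank the nodes of Ranvier and Kv7 channels sit at nodes and initial segments, while in the retina Kir channels of Müller glia take up potassium released by neurons.

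The members fell into 11 subfamilies and the antisense RNA. They were Kv1 (8 genes, Kcna), Kv2 (2, Kcnb), Kv3 (4, Kcnc), Kv4 (3, Kcnd), EAG (8, Kcnh), Kv7 (5, Kcnq), the electrically silent modifiers of Kv2 (10, Kcnf, Kcng, Kcns and Kcnv), the single-span KCNE accessory subunits (5), Kir (15, Kcnj), K2P (14, Kcnk) and BK/SK/Slo (8, Kcnma, Kcnn, Kcnt and Kcnu). Reads were counted by the authors over 1 interval per gene. The interval was the gene body without the outermost 1000 bp at either end, so the start sites that the table's name refers to were mostly not counted. Nuclear reads in intervals numbered 1.58 to 15.1 M (M, 1000000) per library, of which 10264 to 103524 lay in members. The peak libraries were the shallowest, with 1.58 to 3.70 M. Of the 83 members, 80 passed the filter on low counts and were tested. Kcna3, the channel of activated T cells, was not: its span of 1968 bp left an interval of 32 bp, and it was at 0 in 14 of the 16 libraries. Kcne4 and Kcnk7 were the other members too low to test. In 24 members the span overlapped another gene, so their reads cannot be assigned to one gene alone. In sorted bulk cells, fewer cells of a type and less accessible DNA per cell cannot be told apart.

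Levels were compared between genes as a density, in CPM (reads scaled to a library of 1000000) of nuclear reads per kb of interval, taken as the median of the 16 libraries. Potassium channel genes were mostly above the median gene interval of the deposited table. Their median density was 0.785, against 0.581 for all genes, and 63 of the 80 members with an interval of at least 1000 bp (78.8%) lay above the all-gene median. Pooled by length they were near the average, with a mean of 0.677% of nuclear reads over 0.647% of the nuclear interval length. The top 10% of all genes held 10 of the 80 (12.5%), close to the 10% that defines it. They included Kcnj9, Kcna2, Kcns2, Kcnc1, Kcnh2, Kcna6, Kcna10, Kcnv1 and Kcna1, with 4 of the 7 Kv1 genes of that interval length. The groups with none there included BK/SK/Slo, K2P, Kv4, Kv7 and KCNE.

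**Figure D1:**
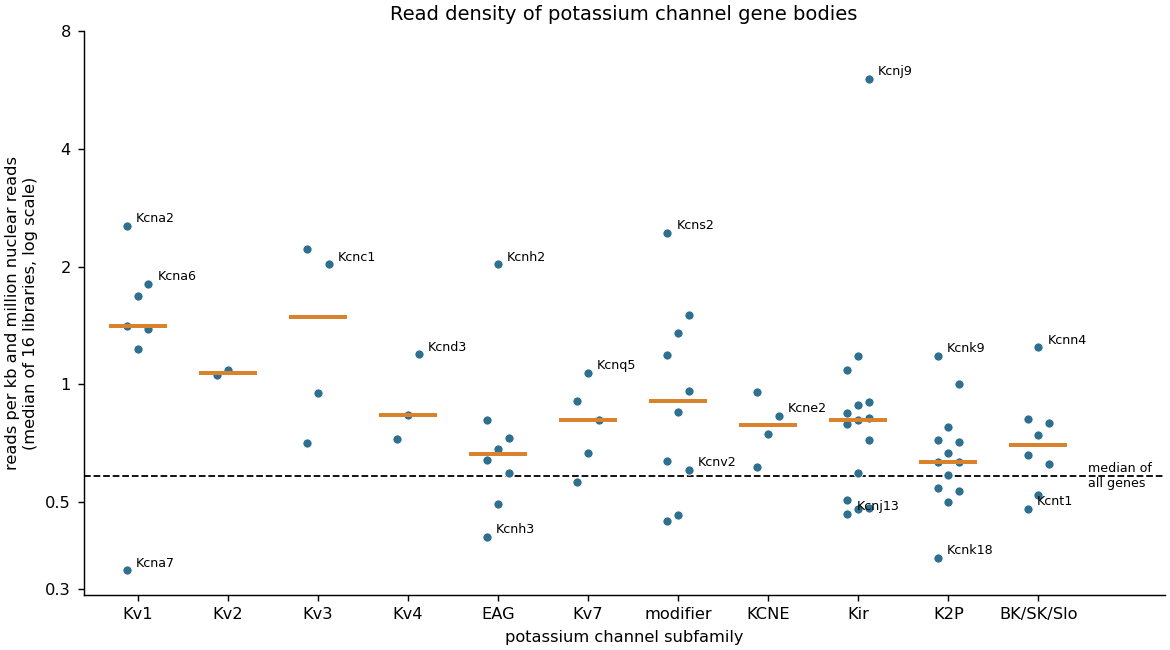
Read density (CPM of nuclear reads per kb of interval, median of 16 libraries, log axis) of each potassium channel gene with an interval of at least 1000 bp, by subfamily; points are genes, orange bars subfamily medians and the dashed line the median of all genes (0.581). Kcnj9 stands highest at 6.04, and the Kv1 and Kv3 medians lie highest among the subfamilies.

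Kcnj9 encodes a subunit of the G-protein-gated inward rectifiers, which neurotransmitter receptors open. Its density was 5.98, 9.21, 5.90, 2.38 and 8.70 in the 5 naive libraries, 7.04, 4.61, 6.82 and 3.22 in presymptomatic, 10.1, 8.43 and 4.97 in onset and 4.28, 6.09, 3.69 and 7.15 in peak libraries. Every library was above the all-gene median, and the 4 stages overlapped. Its median of 6.04 was above 98.8% of all genes. The next channel gene on chromosome 1, Kcnj10, lies 11.9 kb away (chr1:172320501-172329332 and chr1:172341210-172374085, build not given by the authors) and had a median density of 0.813. Kcnj10 encodes the main potassium channel of Müller glia. The difference between these neighbours was described and not tested.

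Kcna2 and Kcna1 encode the Kv1 subunits found together beside the nodes of myelinated axons. Kcna2 (chr3:107090852-107115005) had a median density of 2.54, Kcna6 1.81, Kcna10 1.68 and Kcna1 1.41. Kcna7, a Kv1 gene known from muscle, was lowest of the 80 members with an interval of at least 1000 bp, at 0.335. Kcna2, Kcna10 and Kcna3 are neighbours on chromosome 3, and Kcna1, Kcna5 and Kcna6 on chromosome 6. In Kv3, whose channels repolarise fast-spiking neurons, Kcnc1 (2.03) stood above Kcnc4 (0.947) and Kcnc2 (0.709). Other members far from their subfamily were Kcnh2 (2.03), the mouse counterpart of the cardiac channel hERG, in EAG, and the silent subunit gene Kcns2 (2.44). Kcne1l, another accessory subunit gene, reached 4.67, but over an interval of 554 bp in a gene of 1446 bp, which is not comparable with the others. Next above Kcna7 among those 80 were the leak channel gene Kcnk18 (0.360) and the EAG gene Kcnh3 (0.407).

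Promoter sequences show which start sites the intervals held, since only starts inside a gene body were counted. RefSeq windows of 300 bases (250 before and 50 after a start, GRCm38.p6) were found for 59 members, 75 windows in all. The deposited start or end equals the RefSeq one for 72 members. Of these 72, 50 had a window and 14 had one inside the counted interval. The 14 had a median density of 0.859 and the 36 others 0.734. The sequences printed are those of Kcne2, the member with the smallest p at disease peak, of Kcna2, the Kv1 gene of highest density, and of Kcnj9. Each runs from 5′ to 3′ on the gene's strand. Capitals mark CG dinucleotides in the first 3 and, in Kcnj9, the TATAAA and GGATTA motifs. The first Kcne2 window (chr16:92292139-92292438, plus strand) lies outside the counted interval and holds 9 CG. The second (chr16:92295366-92295665, plus strand) lies inside it and holds 1, and the Kcna2 window (chr3:107101317-107101616, plus strand) lies inside and holds 31. The Kcnj9 window is chr1:172329273-172329572, minus strand, and neither deposited end of that gene equals the RefSeq one.
Kcne2 first start: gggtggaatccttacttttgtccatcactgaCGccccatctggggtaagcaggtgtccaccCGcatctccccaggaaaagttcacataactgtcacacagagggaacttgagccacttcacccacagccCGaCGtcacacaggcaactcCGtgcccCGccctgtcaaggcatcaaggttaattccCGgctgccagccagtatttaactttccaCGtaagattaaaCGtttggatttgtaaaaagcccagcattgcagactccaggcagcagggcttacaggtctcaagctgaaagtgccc
Kcne2 second start: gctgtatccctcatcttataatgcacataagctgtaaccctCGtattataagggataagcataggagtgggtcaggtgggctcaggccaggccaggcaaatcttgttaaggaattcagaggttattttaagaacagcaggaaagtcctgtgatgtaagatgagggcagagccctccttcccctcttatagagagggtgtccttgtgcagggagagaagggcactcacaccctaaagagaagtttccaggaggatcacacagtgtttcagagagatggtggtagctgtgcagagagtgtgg
Kcna2: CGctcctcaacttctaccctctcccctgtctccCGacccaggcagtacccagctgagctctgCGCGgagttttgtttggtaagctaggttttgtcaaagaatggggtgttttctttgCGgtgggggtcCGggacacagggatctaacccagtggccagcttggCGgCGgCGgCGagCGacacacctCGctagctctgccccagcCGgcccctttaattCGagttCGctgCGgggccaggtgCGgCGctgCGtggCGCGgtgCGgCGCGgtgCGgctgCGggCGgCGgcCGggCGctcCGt
Kcnj9: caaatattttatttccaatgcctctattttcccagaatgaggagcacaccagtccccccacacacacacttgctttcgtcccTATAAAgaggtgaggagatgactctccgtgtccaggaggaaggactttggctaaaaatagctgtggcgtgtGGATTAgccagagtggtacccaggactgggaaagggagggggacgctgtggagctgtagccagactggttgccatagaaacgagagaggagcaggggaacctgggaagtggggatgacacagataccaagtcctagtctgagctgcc

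Among all 75 member windows the median was 10 CG, against 7 in the 32851 RefSeq windows of the mouse. The GC box GGGCGG, searched on both strands, was in 50.7% of member windows and 35.7% of all windows. TATAAA was in 5.33% of member windows and 13.6% of all. The photoreceptor homeodomain core TAATCC, which reads GGATTA on the other strand, was in 2.67% and 7.06%. It was found in 2 members, Kcnj9 and Kcng4, a silent modifier gene. A match describes letters in these windows and is not a binding site.

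As a share of nuclear reads, potassium channel genes kept about the same level at the 4 stages. They took 0.684% ± 0.0362 in naive (SD, n = 5), 0.678% ± 0.0184 in presymptomatic (SD, n = 4), 0.645% ± 0.0285 in onset (SD, n = 3) and, at peak, 0.689% ± 0.0287 (SD, n = 4). Their intervals hold 0.647% of the nuclear interval length. The stages overlapped, with onset replicate 3 lowest at 0.614% and naive replicate 3 highest at 0.741%. The Kv4 genes, which carry transient A-type current, took 0.0734 ± 0.0152% in naive, 0.0733 ± 0.00499% in presymptomatic, 0.0591 ± 0.00813% in onset and 0.0770 ± 0.0203% in peak libraries. The EAG genes took 0.117 ± 0.00770%, 0.113 ± 0.00611%, 0.0998 ± 0.00253% and 0.119 ± 0.00797% in the same order (SD over the libraries of each stage). In EAG the 3 onset libraries lay between 0.0982% and 0.103%, below all naive libraries (0.109% to 0.127%). How often pooled shares of other gene sets show such a gap was not computed. In scaled CPM of single genes, the onset and naive groups overlapped in all 8 EAG members, 3 of which were higher at onset. In Kv4 the onset and naive libraries overlapped. The Kv1 genes took 0.0152 ± 0.00482%, 0.0153 ± 0.00392%, 0.0165 ± 0.00434% and 0.0155 ± 0.00455%, and the stages overlapped. These shares were described and not tested.

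In edgeR's quasi-likelihood test with Benjamini-Hochberg adjustment over 29902 genes, 0 members passed an adjusted p of 0.05 in any of the 6 pairwise comparisons or in the F test over the 3 stages against naive. The background was 0.00% in each, as 0 genes passed at all. The counts at an unadjusted p under 0.05 are therefore given beside the share of all genes that met it. DESeq2 and limma voom with quality weights also called 0 members. The 3 comparisons with naive share the same 5 naive libraries, so their fold changes are not independent. Fold changes are log2, of TMM-scaled CPM, the first-named stage over the second.

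**Figure D2:**
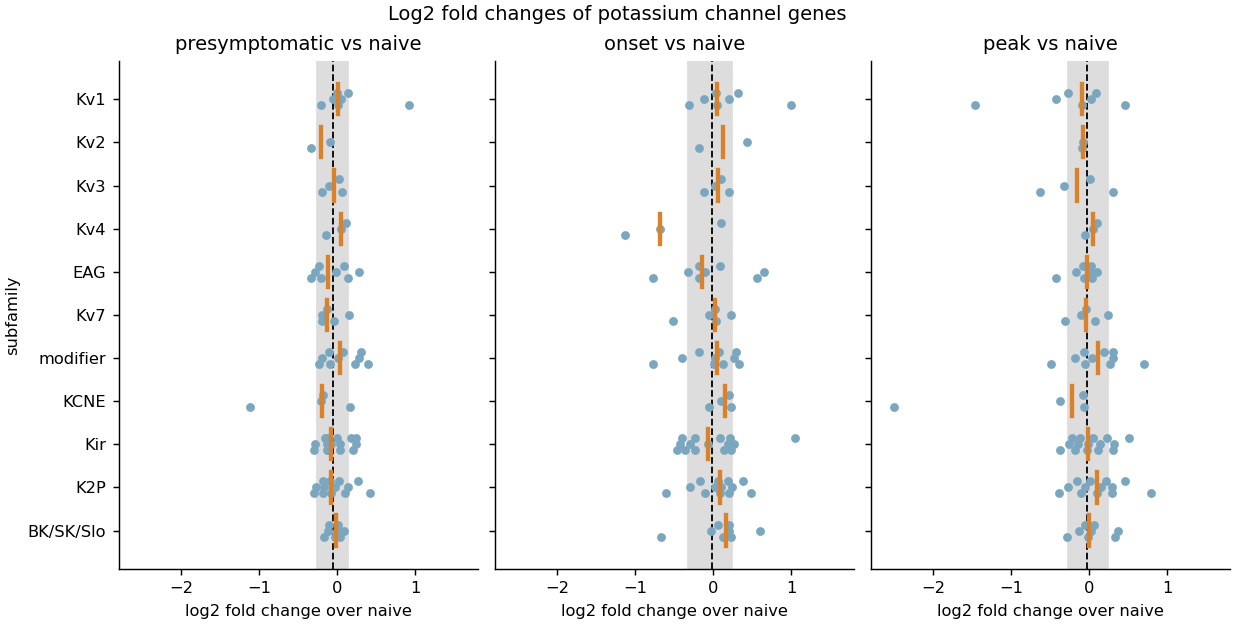
Log2 fold change over naive of each tested potassium channel gene (points) by subfamily in the 3 comparisons with naive; orange bars are subfamily medians, the grey band is the interquartile range of all genes tested and the dashed line is their median. Most points lie in or near the band, with Kcne2 (−2.51 at peak) farthest out and the Kv4 median lowest at onset (−0.68).

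Before signs of disease, at the presymptomatic stage, potassium channel genes were close to their naive level. Of the 80 tested, 34 were higher and 46 lower, with a median log2 fold change of −0.05, against −0.06 for all genes. Scaled by total counts, which put the all-gene median at 0.26, 73 were higher. No member reached an unadjusted p under 0.05, which 0.331% of all genes did on the higher and 0.779% on the lower side (1.11% in all), whereas DESeq2 put 1 of 83 members (1.75% of all genes) and voom 4 of 80 (5.44%) there. Kcne2 had the smallest p. It had 1.70, 1.74, 0.748 and 0 CPM in presymptomatic libraries, against 3.21, 2.98, 1.84, 2.74 and 1.66 in naive libraries. Presymptomatic replicates 3 and 4 were below all naive libraries, and the other presymptomatic libraries lay among the lower naive ones. The log2 fold change was −1.12 ± 0.61 (SE), with an edgeR p of 0.0748 (adjusted p = 1.00).

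The next members by p at this stage were on both sides. Kcnk12, a K2P gene, was at 0.42 ± 0.25 (SE), with 22.7, 16.2, 19.0 and 17.9 CPM in presymptomatic libraries, against 13.1, 14.6, 12.6, 9.38 and 21.0 in naive libraries. All presymptomatic libraries were above 4 of the 5 naive ones. Kcnh1, an EAG channel gene of the brain, was at −0.33 ± 0.20, the antisense RNA Kcnq1ot1 at −0.37 ± 0.26 and Kcnq1 at −0.20 ± 0.19. Kcnq1 and Kcnq1ot1 overlap, so their reads are partly the same. On the higher side were Kcna7 (0.92 ± 0.84), Kcnv1 (0.30 ± 0.30), Kcnh6 (0.28 ± 0.35) and the G-protein-gated rectifier gene Kcnj5 (0.24 ± 0.31). The edgeR adjusted p was 1.00 for each. By subfamily, Kv7 had 1 of 5 higher at a median of −0.13, EAG 3 of 8 at −0.12, Kir 6 of 15 at −0.08, and the modifiers 6 of 10 at 0.04. Kv4 was at 0.05, Kv1 at 0.02, KCNE at −0.20, K2P at −0.07 and BK/SK/Slo at −0.01.

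At disease onset, the A-type gene Kcnd1, the EAG gene Kcnh8 and the leak channel gene Kcnk2 had fewer reads than in naive cells on average, and the inward rectifier gene Kcnj14 had more. These 4 were the members at an unadjusted p under 0.05, 1 higher against 1.56% of all genes and 3 lower against 2.93% (4.49% in all), and none passed adjustment (edgeR adjusted p = 0.985 for each). DESeq2 put 6 of 83 members (5.43% of all genes) and voom 4 of 80 (5.68%) there. The onset and naive groups overlapped in all 80 members tested, whereas 1.6% of all genes were higher and 0.936% lower without overlap. Over all members the balance was 48 higher and 32 lower, a median of 0.05, against 48.6% higher and −0.01 for all genes. Scaled by total counts, which put the all-gene median at 0.60, 74 members were higher. Members with spans of at least 200 kb were 4 of 14 higher at −0.14, and all genes of that span were 35.2% higher at −0.10.

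Kcnd1 encodes a Kv4 subunit of transient outward current. It had 1.13, 2.79 and 3.13 CPM in onset libraries, against 2.99, 2.74, 5.52, 6.11 and 9.22 in naive libraries. Onset replicate 1 was below every naive library, and the other onset libraries lay at the level of the 2 lowest naive ones. The log2 fold change was −1.13 ± 0.46 (SE, edgeR adjusted p = 0.985). Its relative Kcnd2, the main A-type gene of neuronal dendrites, had 156, 226 and 127 CPM at onset, against 199, 171, 493, 292 and 203 in naive libraries. Onset replicates 1 and 3 were below every naive library and replicate 2 was among them (−0.68 ± 0.33, edgeR adjusted p = 0.985). The remaining Kv4 gene, Kcnd3, did not go with them, at 132 ± 17.9 CPM at onset (SD, n = 3) against 124 ± 32.6 in naive libraries (SD, n = 5), a log2 fold change of 0.10 ± 0.22. The Kv4 median of −0.68 thus rests on Kcnd2 as the middle of 3 genes.

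Kcnh8 had 99.3, 150.1 and 91.0 CPM in onset libraries, against 141, 108, 341, 229.7 and 148 in naive libraries. Onset replicates 1 and 3 were below every naive library, onset replicate 2 was among them, and naive replicates 3 and 4 were the highest. The log2 fold change was −0.77 ± 0.29 (SE, edgeR adjusted p = 0.985). Kcnk2, the mechanosensitive and lipid-sensitive leak channel TREK-1, had 42.9, 52.2 and 52.2 CPM at onset, against 72.8, 51.9, 103, 106 and 41.7 in naive libraries. The onset libraries lay above naive replicate 5 and below naive replicates 1, 3 and 4 (−0.61 ± 0.28, edgeR adjusted p = 0.985). Kcnk2 overlaps another gene. The sodium-activated channel gene Kcnt2 was at −0.67 ± 0.33, with a mean of 106 ± 27.5 CPM at onset (SD, n = 3) and 168 ± 79.9 in naive libraries (SD, n = 5).

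Kcnj14 encodes an inward rectifier described in motor neurons. It had 5.02, 3.30 and 10.7 CPM in onset libraries, against 3.42, 2.98, 2.30, 4.22 and 2.52 in naive libraries. Onset replicate 3 was far above the rest, onset replicate 1 was above all naive libraries and onset replicate 2 was among them. The log2 fold change was 1.05 ± 0.46 (SE, edgeR adjusted p = 0.985). Further members on the higher side were Kcnh6 (0.65 ± 0.37), the calcium-activated SK gene Kcnn1 (0.61 ± 0.34) and Kcna7 (1.00 ± 0.87). In Kcnj14, Kcnh6 and Kcnn1 the highest of the 16 libraries was onset replicate 3, with 10.7, 18.8 and 15.8 CPM.

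Onset replicate 3 also stood apart in other measures. Mitochondrial genes took 8.36% of its reads, against 34.4% to 64.7% in the other libraries. The summed level of 12 rod markers was 505 CPM there, with 268 and 264 in onset replicates 1 and 2, against 171 to 272 in naive ones, and of the rod markers only Rom1 was at 0 in some libraries. All 12 rod markers tested, of the 13 listed, were higher at onset (median 0.95), as were 8 of 9 amacrine and horizontal cell markers (median 0.21). The amacrine and horizontal markers summed to 388, 358 and 195 CPM in onset replicates 1, 2 and 3. Naive libraries had 158 to 427 CPM, so onset replicate 3 was not high in these markers. The 9 bipolar cell markers summed to 255, 264 and 328 CPM in the same order and to 228 to 281 in naive libraries. The ganglion cell markers, 5 of 15 higher at onset, summed to 165 to 227 CPM at onset and 171 to 293 in naive libraries, and Pou4f2, Pou4f3, Sncg and Nefl were at 0 in some libraries but none in all. Whether DNA of these cells had a part in the onset values of potassium channel genes was not tested. Without onset replicate 3, 1 member instead of 4 had a p under 0.05 (3.12% of all genes), and Kcnj14 was at 0.42. The count was likewise 1 without onset replicate 1 (2.4% of all genes) and without naive replicate 3 (2.03%).

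Among the subfamilies of at least 3 genes at onset, Kv4 (1 of 3 higher, −0.68) and EAG (3 of 8, −0.14) had the lowest medians. BK/SK/Slo was highest with 6 of 8 higher at 0.16, followed by KCNE (3 of 4, 0.15) and K2P (9 of 13, 0.09). Kv1 had 5 of 7 higher at 0.04, Kv3 3 of 4 at 0.06, Kv7 3 of 5 at 0.03, the modifiers 7 of 10 at 0.05 and Kir 7 of 15 at −0.07. Without onset replicate 3 the Kv1 median was 0.36, Kv7 −0.17 and EAG 0.02.

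**Figure D3:**
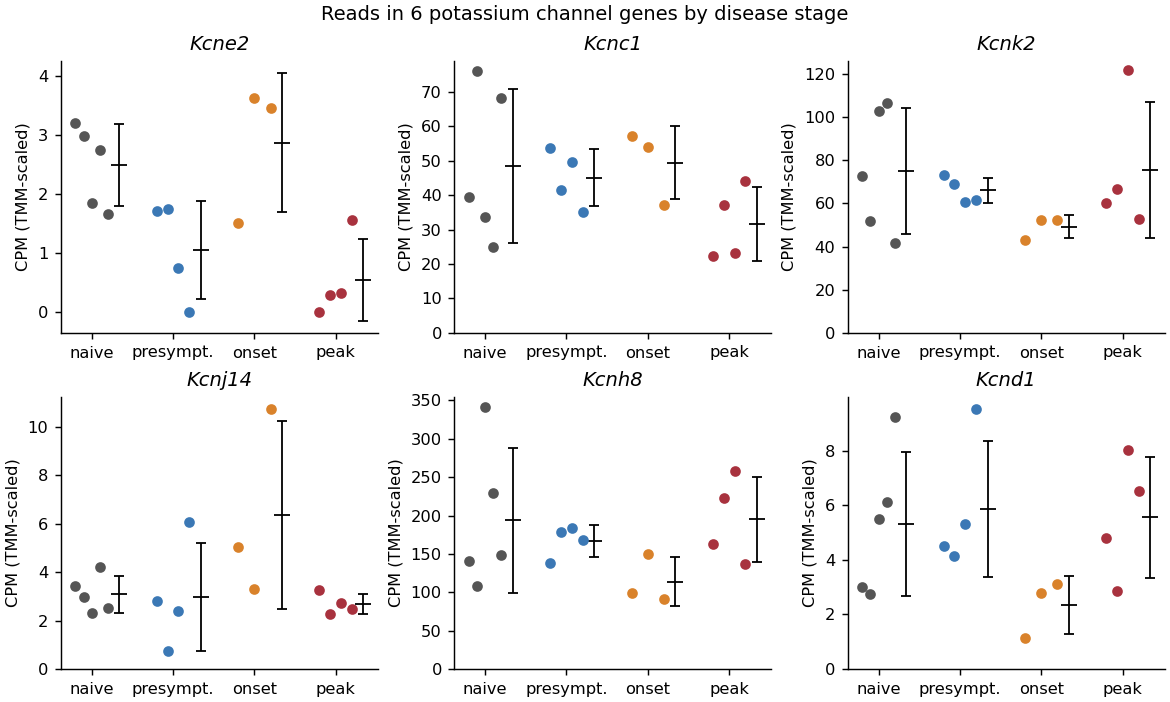
TMM-scaled CPM of 6 potassium channel genes in each library by stage (naive n = 5, presymptomatic n = 4, onset n = 3, peak n = 4); black marks are the mean ± SD. Kcne2 is low in all peak libraries (0 to 1.55 CPM), Kcnd1 is lowest at onset, and the highest Kcnj14 value belongs to onset replicate 3 (10.7 CPM).

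At disease peak, Kcne2 had the most negative log2 fold change of the 80 members tested. Kcne2 (chr16:92292389-92298133) encodes an accessory subunit that partners Kcnq1 and Kcnh2 channels, and its transcript is known from mouse cones. It had 0, 0.285, 0.321 and 1.55 CPM in peak libraries, from 0, 2, 2 and 5 reads, against 3.21, 2.98, 1.84, 2.74 and 1.66 CPM in naive libraries, from 30, 87, 24, 26 and 21 reads. All 4 peak libraries were below all 5 naive libraries. Kcne2 was the 1 member of 80 whose peak and naive groups did not overlap. Of all genes, 0.475% were lower and 0.502% higher at peak without overlap, so 1 of 80 is near the background. The log2 fold change was −2.51 ± 0.75 (SE), with an edgeR p of 0.00231 that did not pass adjustment (adjusted p = 1.00). Leaving out single libraries moved it between −3.59 and −2.02. In onset libraries Kcne2 had 1.51, 3.63 and 3.46 CPM, with 1 library just below the naive range and the others above it. The summed level of 7 cone markers was 47.8 to 82.5 CPM at peak and 46.3 to 69.4 in naive libraries, and their part in the Kcne2 values was not tested.

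The other member at an unadjusted p under 0.05 was Kcnc1, which makes 2 of 80 lower and 0 higher, against 1.76% and 1.77% of all genes (3.53% in all). DESeq2 put 2 of 83 members (4.36% of all genes) and voom 3 of 80 (3.16%) there. Kcnc1 (chr7:46396457-46438706) encodes the Kv3 channel of fast-spiking neurons. It had 22.3, 37.1, 23.1 and 44.2 CPM in peak libraries, against 39.5, 76.2, 33.8, 25.0 and 68.1 in naive libraries. Peak replicates 1 and 3 were below all naive libraries, and the other peak libraries lay within the naive range. The log2 fold change was −0.63 ± 0.28 (SE, edgeR adjusted p = 1.00). Its Kv3 relative Kcnc2 had 72.0 ± 13.0 CPM at peak (SD, n = 4) and 71.3 ± 16.6 in naive libraries (SD, n = 5).

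Further members on the lower side by p were Kcna5 (−1.46 ± 0.88, with 0, 0.285, 0.964 and 0 CPM in peak libraries, against 1.60, 1.51, 0.460, 0.422 and 0.631 in naive libraries), Kcnh2 (−0.42 ± 0.28) and Kcns2 (−0.49 ± 0.41). On the higher side were the silent modifier gene Kcng1 (0.70 ± 0.38), the SK gene Kcnn3 (0.33 ± 0.21), Kcnq1 (0.25 ± 0.19), Kcnk15 (0.79 ± 0.64) and Kcnk12 (0.29 ± 0.25). Kcng1 had 12.5, 7.41, 3.05 and 4.97 CPM at peak, against 6.52, 3.60, 4.44, 4.32 and 2.92 in naive libraries, so peak replicates 1 and 2 were above every naive library and the others were not. Kcnk15 had 1.70, 1.71, 1.77 and 1.55 CPM at peak, against 0.748, 0.720, 0.460, 2.74 and 0.315 in naive libraries, and naive replicate 4 was above all peak libraries while the other naive libraries were below them. None passed adjustment (edgeR adjusted p = 1.00 for each).

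Over all members at peak, 39 were higher and 41 lower at a median of −0.02, against −0.03 for all genes. Scaled by total counts (all-gene median 0.04), 47 were higher. KCNE had 0 of 4 higher at −0.22, Kv3 2 of 4 at −0.15 and Kv1 3 of 7 at −0.09. The modifiers had 6 of 10 higher at 0.11 and K2P 8 of 13 at 0.10. Kv4, Kv7, EAG, Kir and BK/SK/Slo lay between −0.04 and 0.06. Ganglion cell markers were 14 of 15 higher at peak (median 0.25), with sums of 206 to 375 CPM against 171 to 293 in naive libraries. Müller glia and astrocyte markers were 8 of 9 lower (median −0.37), with sums of 75.1 to 112 CPM against 83.4 to 149.5 in naive libraries. Amacrine and horizontal cell markers were 6 of 9 lower (median −0.42), with sums of 189 to 266 CPM at peak and 158 to 427 in naive libraries. The part of these cell types in the peak values was not tested.

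Between disease stages, peak against onset had the most members at an unadjusted p under 0.05, 7 of 80. It also had the largest share of all genes there, 6.58% (2.9% higher and 3.69% lower), and the member count was near that share. Kcne2 (−2.73 ± 0.80, SE), Kcnj14 (−1.24 ± 0.51) and Kcnc1 (−0.65 ± 0.31) were lower at peak. Kcnd1 (1.18 ± 0.48), Kcnh8 (0.78 ± 0.30), Kcnk2 (0.62 ± 0.29) and Kcnj16 (0.65 ± 0.32), an inward rectifier subunit that pairs with Kcnj10, were higher. None passed adjustment (edgeR adjusted p of at least 0.750). Groups did not overlap in Kcnk15 and Kcnk2, which were higher at peak (background 2.56%), and in Kcnh2 and Kcnj14, which were lower (4.18%). Kcnk15 rests on few reads, 12, 12, 11 and 5 in peak libraries and 6, 28 and 25 in onset libraries. In Kcnk2 the gap was narrow, with 52.9 CPM in peak replicate 4 and 52.2 in onset replicate 3. Kcnh2 had 22.8, 30.9, 20.7 and 28.9 CPM at peak, against 37.3, 38.6 and 34.5 at onset.

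Onset against presymptomatic gave 3 members at an unadjusted p under 0.05, against 3.95% of all genes (2.38% higher and 1.57% lower). Among them Kcnj14 was higher, with 5.02, 3.30 and 10.7 CPM at onset, against 2.79, 0.725, 2.38 and 6.05 in presymptomatic libraries (1.18 ± 0.50, SE), and Kcnd1 was lower, with 1.13, 2.79 and 3.13 CPM at onset, against 4.50, 4.13, 5.31 and 9.55 in presymptomatic libraries (−1.24 ± 0.48). Onset and presymptomatic libraries overlapped in Kcnj14 and not in Kcnd1 (edgeR adjusted p = 1.00 for each). Members whose groups did not overlap included Kcnn1 on the higher side (background 5.38%) and Kcnd1, Kcnj16 and Kcnk2 on the lower side (4.69%). Peak against presymptomatic gave 2 members, Kcnq1 (0.44 ± 0.20) and Kcnh1 (0.44 ± 0.21), both higher at peak, against 3.41% of all genes (2.18% higher and 1.22% lower). Kcnk15 alone did not overlap, on the higher side (1.51%, and 1.21% on the lower). The F test over the 3 stages against naive gave 2 members at an unadjusted p under 0.05, Kcne2 and Kcnj14, against 3.1% of all genes.

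A further 11 members with known roles, from Kcna2 to Kcnt1 in the order given here, each had an unadjusted p above 0.05 in the comparisons with naive, which does not show that they were unchanged. Among axonal genes, Kcna2 had 28.2 ± 6.94 CPM at peak (SD, n = 4) and 29.9 ± 11.1 in naive libraries (SD, n = 5), or −0.09 ± 0.28 (SE) in log2 fold change. At onset Kcna2 was at 0.04 ± 0.30 and at the presymptomatic stage at −0.05 ± 0.27. Kcna1 was at −0.43 ± 0.40 at peak, with 5.39, 4.13, 0.964 and 4.97 CPM in peak libraries, against 4.91, 6.48, 3.52, 4.11 and 6.62 in naive libraries, and only peak replicate 3 was outside the naive range. Kcnq3, an M-current gene, was at 0.08 ± 0.20 at peak and at 0.03 ± 0.22 at onset. Kcnk4, the leak channel TRAAK of nodes of Ranvier, was at 0.29 ± 0.49 at peak, from 1.61 to 2.98 CPM in peak libraries. The calcium-activated BK channel gene Kcnma1 had the smallest within-stage SD of any tested member, 0.206 log2 CPM, and was at −0.10 ± 0.18, 0.12 ± 0.19 and −0.13 ± 0.18 at the presymptomatic, onset and peak stages. The SK gene Kcnn2 was at 0.03 ± 0.19, −0.03 ± 0.21 and 0.06 ± 0.19 in the same order.

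Among genes of other retinal cells, Kcnj10 of Müller glia was at 0.19 ± 0.30 at onset and −0.15 ± 0.29 at peak. Kcnv2, which joins Kv2 channels in photoreceptors, had 4.52, 3.52 and 9.54 CPM in onset libraries, against 6.94, 3.67, 4.37, 7.80 and 1.81 in naive libraries, and onset replicate 3 was again the highest of the 16 (0.27 ± 0.45, SE). Kcnj13 of the pigment epithelium was at −0.30 ± 0.65 at onset and −0.26 ± 0.63 at peak, over a span that overlaps Gigyf2. The rectifier gene Kcnj2 had the largest within-stage SD, 1.27 log2 CPM, and was at 0.04 ± 0.57 at peak. Kcnt1, a sodium-activated channel gene, was at 0.37 ± 0.35 at peak with 10.3 to 30.9 CPM. The median within-stage SD between single libraries was 0.481 log2 CPM, and it differed widely between genes. Each fold change, a difference of stage means, is therefore read against its own SE, and none passed adjustment.

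Genes that work with these channels but lie outside the naming rule were read the same way. The list held 35 genes, all tested, among them beta subunits, the KChIP and DPP partners of Kv4, HCN channels and scaffold proteins of the axon. At the presymptomatic stage 9 were higher (median −0.08), at onset 18 (0.01) and at peak 10 (−0.13), against −0.06, −0.01 and −0.03 for all genes. Of all genes, 41.6%, 48.6% and 47.1% were higher at these stages. edgeR called 0 of the list and 0.00% of all genes. At an unadjusted p under 0.05, 1 was higher and 1 lower at onset (1.56% and 2.93% of all genes) and 1 higher at peak (1.77%).

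Across the 16 libraries, the CPM of some channel genes, and of many others, followed the share of reads in receptor genes of the nose. Olfactory and vomeronasal receptor genes, which sensory neurons of the nose use, took 0.201% to 0.580% of nuclear reads, highest in naive replicates 3 and 4 and peak replicate 3. The log2 CPM of each gene was related to the log2 of this share with 100000 permutations, adjusted by Benjamini-Hochberg over all 29902 genes. In Pearson's r, 10 of the 80 members passed in the positive direction (12.5%, against 11.2% of the 29220 genes that are not receptors) and 13 in the negative direction (16.2%, against 8.85%). The positive share was near the background.

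The long A-type gene Kcnd2 had r = 0.912 and rho = 0.900 (permutation p = 1e-05 in both, the lowest that 100000 draws allow, adjusted p = 0.000419 and 0.000906). Without the 2 libraries farthest from the median share, naive replicates 3 and 4, its Pearson r stood at 0.894, and the within-stage value was 0.907. The Kv7 gene Kcnq5 had r = 0.920 and rho = 0.859, Kcns3 r = 0.898 and rho = 0.871, and Kcnh8 r = 0.892 and rho = 0.885. Kcnk2 had r = 0.875 and rho = 0.829, and Kcnt2 r = 0.864 and rho = 0.832. For these 5, r was 0.876, 0.824, 0.832, 0.805 and 0.786 without the 2 farthest libraries, in the order given, and 0.937, 0.893, 0.918, 0.882 and 0.854 within stages. Their adjusted p was at most 0.000850 in r and at most 0.00479 in rho (permutation test). Of the 14 members with spans of at least 200 kb, 4 passed in the positive direction (28.6%, against 33.0% of all such genes) and 2 in the negative (14.3%, against 13.7%). Of the 48 under 50 kb, 3 passed in the positive direction (6.25%, against 8.51%) and 7 in the negative (14.6%, against 7.52%).

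In the opposite direction stood Kcnh2 (r = −0.814, rho = −0.782), Kcnn3 (r = −0.811, rho = −0.815), Kcnma1 (r = −0.798, rho = −0.812) and Kcnc1 (r = −0.637, rho = −0.656). Their permutation p was 0.000180, 4e-05, 0.000130 and 0.00839 in Pearson's r (adjusted p = 0.00304, 0.00103, 0.00241 and 0.0437). Without the 2 farthest libraries r was −0.717, −0.652, −0.808 and −0.585, and within stages −0.836, −0.914, −0.797 and −0.75. In rho the adjusted p was 0.00967, 0.00448, 0.00533 and 0.0465 in the permutation test.

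**Figure D4:**
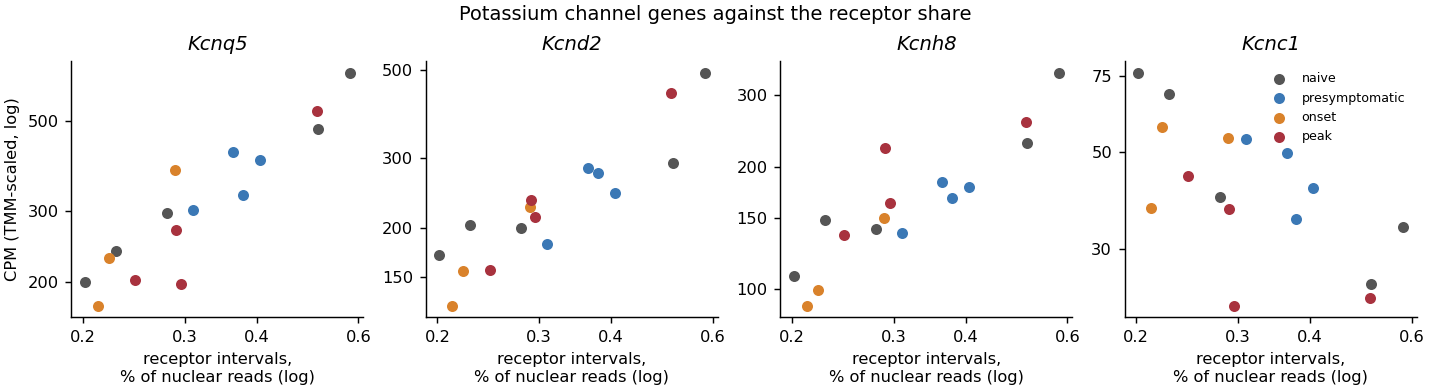
TMM-scaled CPM of 4 potassium channel genes against the share of nuclear reads in olfactory and vomeronasal receptor intervals, both on log axes, for 16 libraries coloured by stage. Kcnq5, Kcnd2 and Kcnh8 rise with the share (r = 0.920, 0.912 and 0.892) and Kcnc1 falls (r = −0.637).

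With the log2 receptor share as a covariate in the edgeR fit, the members at an unadjusted p under 0.05 at onset numbered 1 instead of 4 (1.98% of all genes). At the presymptomatic stage they numbered 1 instead of 0 (2.38% of all genes) and at peak 3 instead of 2 (5.53%). Of the 80, 47, 34 and 39 were higher at the presymptomatic, onset and peak stages. The member at onset was Kcnd1, at −0.98 ± 0.45 (SE). Kcnh8 was then at −0.27 ± 0.17, Kcnk2 at −0.15 ± 0.19 and Kcnd2 at −0.16 ± 0.17, while Kcnj14 was at 0.99 ± 0.50. At peak Kcne2 was at −2.53 ± 0.72 and Kcnc1 at −0.58 ± 0.20, close to their values without the covariate. The share was 0.212% to 0.289% in onset libraries, against 0.201% to 0.580% in naive libraries. What the receptor share measures in these libraries was not tested.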

How the data were processed

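Reads were processed by the authors with cutadapt, HISAT2 and HTSeq, per the submitters' processing notes, which give no versions. Build, duplicate removal and any shift of read ends are not given in the sources used here. Deposited counts are unscaled, 1 column for each of 16 libraries. The RPKM values deposited by the authors served only to find the interval lengths: a length of the span less 2000 bp, taken without sign, returned 1 total per library (largest relative deviation 9.15e-14). Library totals so implied were 7.42 to 65.2 M (M, 1000000 reads).

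The counts were fitted over all genes with edgeR 4.0.16 (limma 3.58.1, R 4.3.3), with TMM scaling, filterByExpr (minimum count 10, minimum total 15), a mean per stage and Benjamini-Hochberg adjustment. Standard errors came from the F statistic. DESeq2 1.42.0, voom and the alternatives of the closing section were also run, and the fit was tested on simulated data. Densities are reads per kb of interval and M reads outside the 13 mitochondrial intervals. Correlations used numpy 2.4.6 and scipy 1.17.1 in Python 3.11.15.

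Genes were named by rule: the 5 members higher and the 5 lower with the smallest p in each comparison with naive, the 10 of highest density, and 22 with known roles. Some members that the rule takes are not reported here by name. Members that stood out between other stages or followed the receptor share were named after their values were seen. The members and lists were chosen with earlier results of these data known. No pair of libraries of the same stage agreed within sampling noise (smallest chi-square per gene 5.52). Pairs across stages were not compared in this way.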

Additional observations from a re-analysis of the deposited data

Results flagged for a closer look

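In 165 sets of values of 4 or 5 libraries (members and subfamily shares by stage), 4 held a library far from the others, or 2.42%, where chance gives about 1 in 20. The share of nuclear reads in the Kv4 genes, Kcnd1 to Kcnd3, was 0.100% in naive replicate 3 and lower in the other naive libraries (from 0.0639%). Kcnk15 had 2.74 CPM in naive replicate 4, above the other naive libraries (0.315 to 0.748 CPM). Kcnn3 had 48.4 CPM in presymptomatic replicate 1, above the other presymptomatic libraries at 43.9 to 44.4 CPM. Kcnma1 had 199 CPM in peak replicate 3, below the other peak libraries at 284 to 294 CPM. Naive replicates 3 and 4 and peak replicate 3 were the libraries of highest receptor share (0.580%, 0.511% and 0.508% of nuclear reads), and the part of that share in these values was not tested.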

How the results depend on the processing

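The count of members past an adjusted p of 0.05 was 0 in all 7 tests under every alternative run, including edgeR with DESeq2 size factors or total counts, other filters, DESeq2, voom and single libraries left out. The smallest adjusted p of any member over these settings was 0.111, for peak against onset. Of 3393 values for single named genes, 304 changed sign, and 1 did so with both values beyond 1 SE: Kcnh1 at onset was at 0.38 when scaled by total counts. That scaling put the median of all genes at 0.26, 0.60 and 0.04 at the presymptomatic, onset and peak stages, so medians under it are read against those values.

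With total counts at the presymptomatic stage, the median log2 fold change was 0.23 over all members, 0.27 in BK/SK/Slo, 0.23 in EAG, 0.21 in K2P, 0.22 in Kir, 0.17 in Kv7 and 0.39 in the modifiers. At onset it was 0.58 over all members, 0.71 in BK/SK/Slo, 0.45 in EAG, 0.65 in K2P, 0.61 in KCNE, 0.54 in Kir, 0.45 in Kv1, 0.51 in Kv3, −0.092 in Kv4, 0.62 in Kv7 and 0.58 in the modifiers, and at peak it was 0.079 in Kv7. With the receptor share as a covariate the presymptomatic median of all members was 0.056, and at onset BK/SK/Slo was at −0.017 and Kv4 at −0.16. With voom, Kv4 at onset was at −0.37 and Kv7 at −0.12. Without libraries 16 and 17 (presymptomatic replicate 4 and onset replicate 3), EAG at onset was at 0.020, Kv1 at 0.36 and Kv7 at −0.17.

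Single libraries left out moved these medians. At the presymptomatic stage EAG ranged from −0.15 to 0.054 and Kv7 from −0.23 to −0.054. At onset EAG ranged from −0.22 to 0.019, Kv1 from −0.086 to 0.36, Kv4 from −0.94 to −0.35, Kv7 from −0.17 to 0.035 and the modifiers from −0.20 to 0.11, and at peak Kir ranged from −0.064 to 0.17 and Kv7 from −0.16 to 0.067. The moves came without naive replicate 5 (EAG, presymptomatic), naive replicate 3 (Kv4 at onset, Kv7 at both the presymptomatic stage and onset), onset replicate 3 (EAG, Kv1 and Kv7), onset replicate 2 (modifiers), peak replicate 3 (Kir and Kv7) and peak replicate 1 (Kv7). The cause was not tested.

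No pairing of libraries by replicate number was seen, which does not exclude one. Deviations of same-numbered libraries correlated at −0.342 to 0.373 over 21 pairs, 6 of them over 0.1. Of 15 libraries, 2 correlated best with one of their own number. With the replicate block, EAG was at 0.073 at the presymptomatic stage and Kv7 at −0.071 at onset, 0 members were called, and 1, 7 and 1 members had an unadjusted p under 0.05 at the presymptomatic, onset and peak stages (0.9%, 6.16% and 2.65% of all genes). As a share of all interval reads, mitochondrial ones included, members took 0.325% in naive, 0.385% in presymptomatic, 0.433% in onset and 0.324% in peak libraries. With members that overlap another gene left out, an alternative chosen after seeing the data, the medians of all members were −0.02, 0.09 and −0.02 at the presymptomatic, onset and peak stages, and 0 were called. Members of short span rest on few reads, and at the depth of the peak libraries Kcne2 differences rest on 9 reads in all.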
